A study of Mus musculus with 7 samples.

Results

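Carboxylesterases are serine hydrolases, and the 10 genes described here are the mouse carboxylesterases of the Ces1, Ces2 and Ces3 groups chosen by their symbols, with earlier results of these data known. All 10 are among the 56691 genes counted: Ces1b, Ces1c, Ces1d, Ces1e, Ces1f and Ces1g of the Ces1 group, Ces2a, Ces2c and Ces2e of the Ces2 group, and Ces3a. RNA was sequenced from whole liver of 4 control mice and 3 mice given lipopolysaccharide (LPS), a bacterial cell wall component that causes acute inflammation and liver injury. All were male C57BL/6J mice, an inbred strain, bought at 8 weeks of age and housed for 2 weeks. The LPS mice received 10 mg/kg by intraperitoneal injection and their livers were taken 24 h later. The control mice are labelled only as control, with no vehicle named. The counts hold no library of the group given SFN before LPS. The study kept 6 mice in each group, so the sequenced livers are some of them.

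Total counts were 14991022, 15096573, 15721944 and 18584140 in control replicates 1 to 4 and 20500391, 17095607 and 17821331 in LPS replicates 1 to 3. Levels are given as CPM, the counts of a gene relative to the size of its library, after scaling by the TMM factors of edgeR, a method that rests on most transcripts staying the same between libraries. The libraries were not all alike. Mitochondrial transcripts took 23.7%, 14.6%, 7.48% and 8.96% of the counts in control replicates 1 to 4 and 6.45%, 3.83% and 3.94% in LPS replicates 1 to 3. Among pairs of mice treated alike, LPS replicates 2 and 3 were the closest: the SD of their log2 ratio was 0.102, and for the remaining pairs it was 0.294 to 0.578. Variance between them was 3.64 times the counting noise, which does not show whether they come from separate mice. They were kept as 2 mice because the labels list them so.

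Carboxylesterases cleave ester, amide and thioester bonds, and most of them reside in the lumen of the endoplasmic reticulum, held there by a retrieval signal at the end of the protein, while some mouse forms are secreted into plasma. In liver they hydrolyse ester drugs and prodrugs, and several also act on triacylglycerol and cholesteryl ester, which ties them to the release of stored lipid and the loading of very low density lipoprotein. Mice carry many more of these genes than humans do, because the Ces1 and Ces2 groups were copied repeatedly side by side. In the gene table of RefSeq all 20 mouse genes with a Ces symbol lie on chromosome 8, in the order Ces1a to Ces1h, Ces5a, Ces2a to Ces2h, Ces3a, Ces3b and Ces4a. The question put to the data was how far each of these copies responded to LPS, and whether they responded alike.

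Taken as a sum, the transcripts of the 10 carboxylesterases were lower in every LPS mouse than in any control mouse. The summed level was 6728, 7792, 8987 and 8175 CPM in control replicates 1 to 4 and 1496, 1768 and 1704 CPM in LPS replicates 1 to 3. The groups were far apart, and the lowest control mouse, replicate 1, stood well above the highest LPS mouse. The mean was 7920 ± 938 CPM (SD, n = 4) in control mice and 1656 ± 142 CPM (SD, n = 3) in LPS mice, which is 4.78-fold lower. As a share of all counts, with no scaling factor, the family made up 0.824% ± 0.136 (SD, n = 4) in control liver and 0.157% ± 0.00353 (SD, n = 3) in LPS liver. In whole liver, fewer cells of a type and less RNA per cell cannot be told apart. No p-value is given for these sums, since the genes were chosen with results known.

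Each group shared in the lower sum, by different amounts. The 6 Ces1 genes together had 3707, 4896, 5234 and 5152 CPM in control replicates 1 to 4 and 644, 709 and 737 CPM in LPS replicates 1 to 3, a 6.81-fold lower mean. The 3 Ces2 genes together had 521, 633, 716 and 623 CPM in control mice and 141, 200 and 180 CPM in LPS mice, a 3.59-fold lower mean. Ces3a was 3.24-fold lower. In none of these sums did a control mouse overlap an LPS mouse. Control replicate 1, the library with the largest mitochondrial share, had the lowest Ces1 and Ces2 sums of the control mice. Without it the log2 ratio of the family sum was -2.33, against -2.26 with all mice.

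Ces1d and Ces1f, the genes of enzymes known as triacylglycerol hydrolases of the hepatocyte endoplasmic reticulum, nearly vanished from the LPS livers. Ces1d (ENSMUSG00000056973) had 542, 990, 1121 and 1146 CPM in control replicates 1 to 4 and 10.7, 12.7 and 12.4 CPM in LPS replicates 1 to 3. Control replicate 1 was the lowest of its group, and even there the level was many times that of any LPS mouse. The mean level in LPS mice was 1.26% of the control mean. Ces1d changed by -6.31 on the log2 scale (SE 0.30, adjusted p = 2.45e-08 in edgeR's quasi-likelihood test over 13683 genes). Ces1f (ENSMUSG00000031725) had 450, 552, 524 and 573 CPM in control mice and 8.11, 4.19 and 7.97 CPM in LPS mice. Here the control mice lay close together, and LPS replicate 2 was the lowest mouse. The mean level of Ces1f in LPS mice was 1.29% of the control mean, and its log2 change was -6.27 (SE 0.27, adjusted p = 9.89e-09, same test). Together these genes made up 18.5% ± 2.72 (SD, n = 4) of the counts of the 10 genes in control liver and 1.14% ± 0.161 (SD, n = 3) in LPS liver.

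Ces1e and Ces1g fell less far. Ces1e (ENSMUSG00000061959) encodes egasyn, which holds beta-glucuronidase in the endoplasmic reticulum. Its levels were 214, 271, 216 and 258 CPM in control replicates 1 to 4 and 14.3, 11.9 and 12.5 CPM in LPS replicates 1 to 3. Every LPS mouse was close to the mean of its group. Ces1e fell by 4.22 on the log2 scale (SE 0.18, adjusted p = 9.89e-09, same test). Ces1g (ENSMUSG00000057074), long known as esterase-x, had 219, 305, 290 and 289 CPM in control mice and 19.0, 26.4 and 27.8 CPM in LPS mice. The lowest mouse of each group was replicate 1. Ces1g fell by 3.50 (SE 0.20, adjusted p = 9.01e-08, same test). Gusb, the gene of the beta-glucuronidase that egasyn binds, did not share the fall: it had 19.4 ± 4.68 CPM (SD, n = 4) in control mice and 29.6 ± 2.40 CPM (SD, n = 3) in LPS mice, with a log2 fold change of 0.61 (adjusted p = 0.0327, edgeR's quasi-likelihood test).

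Ces1c and Ces1b are the closest pair of copies among the 10 genes, and they had the smallest changes of the Ces1 group. Ces1c (ENSMUSG00000057400) encodes the major carboxylesterase of mouse plasma, a secreted enzyme. Its levels were 2214, 2672, 3005 and 2798 CPM in control mice and 547, 592 and 617 CPM in LPS mice. Per kilobase of transcript it was the most abundant of the 6 Ces1 genes in every mouse. Ces1c fell by 2.19 on the log2 scale (SE 0.18, adjusted p = 1.73e-06, same test), so LPS liver kept 21.9% of the control level. Ces1b (ENSMUSG00000078964) had 68.0, 107, 78.4 and 87.4 CPM in control mice and 44.2, 61.8 and 59.9 CPM in LPS mice. The groups did not overlap, but LPS replicate 2 and control replicate 1 were close. Its change of -0.63 on the log2 scale (SE 0.18, adjusted p = 0.0231, same test) did not pass the fold threshold used here, a log2 fold change beyond 1 in either direction. The adjusted p of Ces1b also rose above 0.05 when certain mice were left out: it was 0.0968 without LPS replicate 1, 0.0576 without LPS replicate 3 and 0.052 without control replicate 2 (edgeR's quasi-likelihood test). With LPS replicates 2 and 3 summed into 1 sample it was 0.0557. Over all alternatives it ranged from 0.00352 to 0.0968.

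In the Ces2 group, whose enzymes prefer esters with a small acyl group and a large alcohol group, the 3 genes fell to very different depths. Ces2c (ENSMUSG00000061825) had 70.9, 60.1, 101 and 71.9 CPM in control replicates 1 to 4 and 2.12, 2.38 and 1.87 CPM in LPS replicates 1 to 3. Control replicate 3 was the highest of its group, and the LPS mice lay within a narrow range. Ces2c fell by 5.16 on the log2 scale (SE 0.23, adjusted p = 1.57e-08, same test). Ces2a (ENSMUSG00000055730), the most abundant of the 3 Ces2 genes per kilobase in control liver, had 313, 347, 394 and 348 CPM in control mice and 79.3, 92.6 and 81.5 CPM in LPS mice. It fell by 2.05 on the log2 scale (SE 0.15, adjusted p = 7.97e-07, same test). Ces2e (ENSMUSG00000031886) had 138, 226, 221 and 204 CPM in control mice and 59.6, 105 and 96.6 CPM in LPS mice. LPS replicate 1 was the lowest mouse, and the highest LPS mouse was not far below control replicate 1. Ces2e fell by 1.18 (SE 0.22, adjusted p = 0.00181, same test). Without LPS replicate 1 it was -0.97, which is short of the fold threshold, with an adjusted p of 0.00646 within a range of 1.05e-09 to 0.00817 over all alternatives (edgeR's quasi-likelihood test or DESeq2).

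Ces3a (ENSMUSG00000069922) is, with Ces1c, the most abundant carboxylesterase transcript of these livers per kilobase. Its levels were 2499, 2263, 3037 and 2399 CPM in control replicates 1 to 4 and 711, 859 and 787 CPM in LPS replicates 1 to 3. All LPS mice were lower than all control mice by a wide gap. Ces3a fell by 1.70 on the log2 scale (SE 0.18, adjusted p = 1.55e-05, same test), and LPS liver kept 30.8% of the control level.

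**Figure D1:**
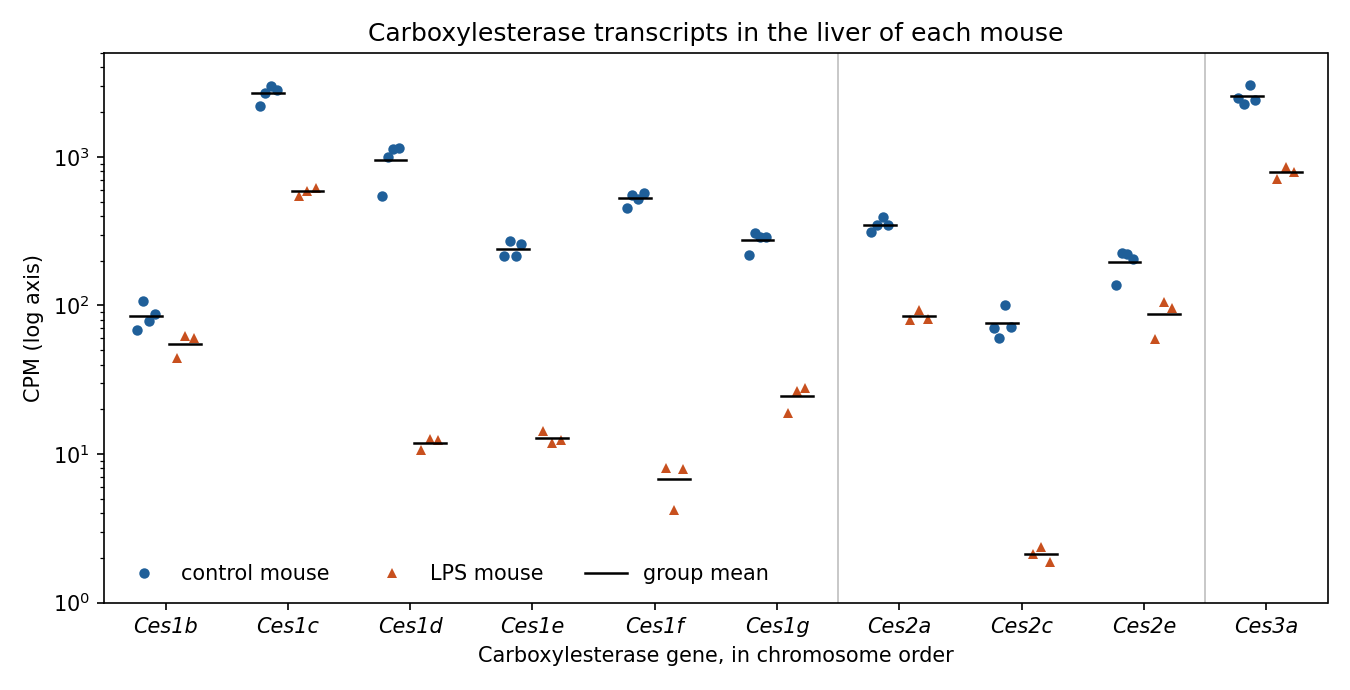
Levels of the 10 carboxylesterase transcripts in each mouse, in CPM on a log axis, with blue circles for the 4 control mice, orange triangles for the 3 LPS mice and black lines for the group means. The vertical lines part the Ces1, Ces2 and Ces3 genes. Ces1d, Ces1f and Ces2c have the widest gaps between the groups, and Ces1b has the smallest, from 85.3 CPM in control mice to 55.3 CPM in LPS mice.

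Counted together, 9 of the 10 carboxylesterases were called lower, at an adjusted p below 0.05 and a log2 fold change below -1, and 0 were called higher. Of all 13683 genes tested, 7.31% were called lower and 7.81% higher. With DESeq2 the same counts were 9 lower and 0 higher, and at an unadjusted p below 0.05 in edgeR's test 0 of the 10 genes were higher. Without the fold threshold all 10 passed as lower, against 13.0% of the genes tested. Every LPS mouse was below every control mouse for all 10 genes, and the same held for 17.4% of the genes tested. The median log2 fold change of the 10 genes was -2.85, and that of all genes tested was -0.01. By group it was -3.86 for the 6 Ces1 genes and -2.05 for the 3 Ces2 genes. All 10 genes passed the filter on low counts, and each was well covered in control liver. With total counts in place of TMM factors the median of all genes moved to -0.129, and the 10 genes kept their direction.

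The sizes of these falls differed between the copies. To test this, the log2 ratio of the counts of a pair of genes was taken within each mouse, which does not depend on how libraries are scaled, and compared between the groups for all 45 pairs. In 37 pairs the ratio differed between control and LPS mice with an adjusted p of 0.0347 (exact permutation test, two-sided, Benjamini-Hochberg adjustment over the 45 pairs). The raw p of each of these was 0.0286, the smallest that 4 mice against 3 can give. In most pairs, then, the copies did not respond to the same extent. This held for 13 of 15 pairs within the Ces1 group, 3 of 3 within the Ces2 group and 21 of 27 between groups. The 45 pairs are drawn from only 10 genes, so they are not separate tests. The same share among pairs of other genes was not taken, and the 10 genes were chosen with results known.

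Differences within a group were as large as those between groups. The log2 ratio of Ces1b to Ces1f was -2.73, -2.36, -2.74 and -2.71 in control replicates 1 to 4 and 2.44, 3.87 and 2.91 in LPS replicates 1 to 3. The order of the pair was thus turned over. Per kilobase, too, Ces1f stood above Ces1b in every control mouse and below it in every LPS mouse. The difference of 5.71 on the log2 scale was the largest of the 45 (adjusted p = 0.0347, exact permutation test). In the Ces2 group the log2 ratio of Ces2c to Ces2e ran from -1.91 to -0.96 over the control mice and from -5.67 to -4.80 over the LPS mice. Ces2c thus lost far more than Ces2e, with a difference of -3.93 (adjusted p = 0.0347, exact permutation test). Ces1b and Ces1c, the closest copies among the 10, also parted: their log2 ratio ran from -5.26 to -4.64 over the control mice and from -3.63 to -3.26 over the LPS mice, a difference of 1.56 (adjusted p = 0.0347, exact permutation test).

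For 8 pairs the difference did not pass. The ratio of Ces1d to Ces1f differed by 0.07 on the log2 scale between groups (adjusted p = 0.886, exact permutation test). It ranged from 0.27 to 1.10 in control mice and from 0.40 to 1.59 in LPS mice, and the groups overlapped. The ratio of Ces1c to Ces2a differed by -0.13 (adjusted p = 0.146, exact permutation test), with 2.82 to 3.01 in control mice and 2.68 to 2.92 in LPS mice. These genes lie in different groups and had narrow ranges. The pair Ces2e and Ces3a differed by 0.50 (adjusted p = 0.146, exact permutation test). The other 5 pairs each had an adjusted p of 0.0612 in the exact permutation test: Ces1b with Ces3a, Ces1c with Ces3a, Ces1d with Ces2c, Ces1e with Ces1g, and Ces1e with Ces2c. Of these, only Ces1e with Ces1g overlapped between the groups. A p above the threshold does not show that a pair responded alike.

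**Figure D2:**
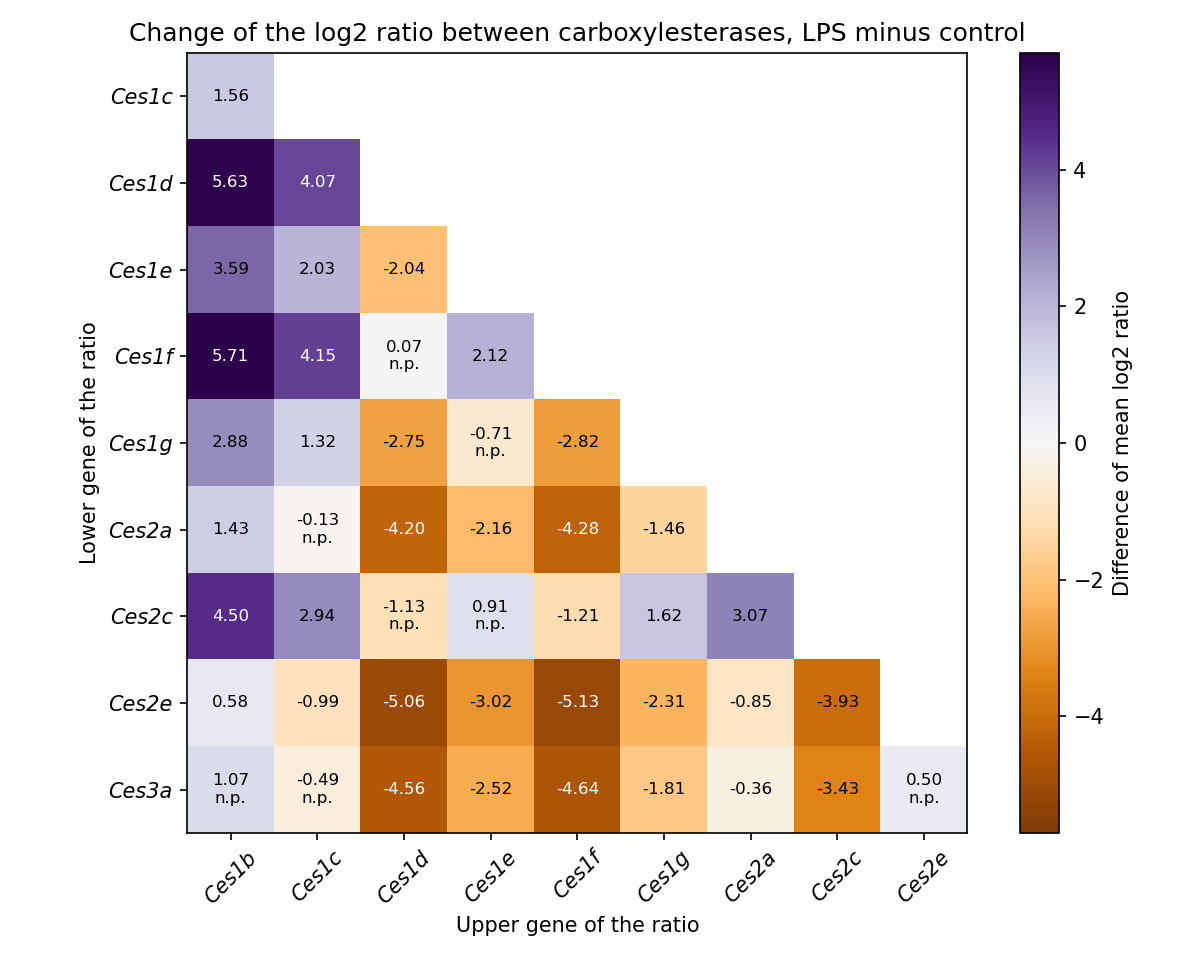
Change of the within-mouse log2 ratio of counts for the 45 pairs of carboxylesterases, as the LPS mean (3 mice) minus the control mean (4 mice), with the gene named below divided by the gene named at the left. Purple marks a ratio that rose and orange one that fell, and n.p. marks the 8 pairs whose adjusted p is not below 0.05. The values run from -5.13 for Ces1f over Ces2e to 5.71 for Ces1b over Ces1f.

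Unequal falls changed the make-up of the carboxylesterase pool. The Ces1 genes gave 55.1%, 62.8%, 58.2% and 63.0% of the counts of the 10 genes in control replicates 1 to 4 and 43.0%, 40.1% and 43.3% in LPS replicates 1 to 3. Ces3a gave 37.1%, 29.0%, 33.8% and 29.4% in control mice and 47.5%, 48.6% and 46.2% in LPS mice. The leading share thus passed from the Ces1 group to Ces3a, with no overlap between the groups. The Ces2 genes went from 7.87% ± 0.223 (SD, n = 4) to 10.4% ± 0.941 (SD, n = 3). The share of Ces1c was 33.7% ± 0.659 (SD, n = 4) in control mice and 35.4% ± 1.68 (SD, n = 3) in LPS mice, and these ranges overlapped. Ces1c and Ces3a together made up 66.0% ± 3.22 (SD, n = 4) of the pool in control liver and 82.9% ± 1.11 (SD, n = 3) in LPS liver. A share can be higher while its gene is lower, as Ces1b shows: it was 1.08% of the pool in control mice and 3.32% in LPS mice, while its CPM was lower in every LPS mouse.

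**Figure D3:**
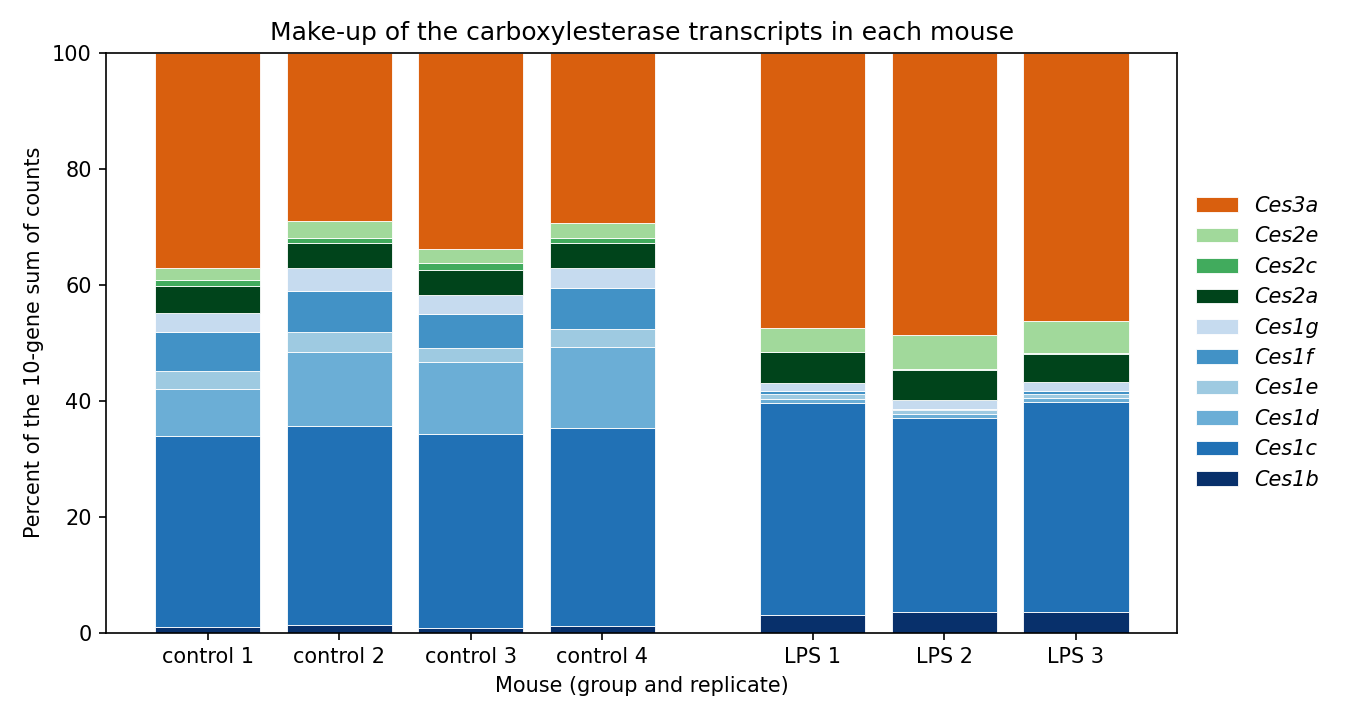
Make-up of the carboxylesterase counts in each mouse, as percent of the sum of the 10 genes, with Ces1 genes in blue, Ces2 genes in green and Ces3a in orange. In the 3 LPS mice the bands of Ces1d, Ces1e, Ces1f, Ces1g and Ces2c are thin, and Ces3a takes between 46.2% and 48.6%, above the 29.0% to 37.1% of the 4 control mice.

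To compare levels between genes, CPM was divided by the length of the transcript with the longest coding sequence in GENCODE M21. In control liver the order per kilobase was Ces1c (1462 ± 183 CPM per kilobase, SD, n = 4), Ces3a (1246 ± 166), Ces1d, Ces1f, Ces2a, Ces1e, Ces1g, Ces2e, Ces1b and Ces2c (38.6 ± 8.92). Several neighbours in this order overlapped across the control mice: Ces1c with Ces3a, Ces1d with Ces1f, Ces1e with Ces1g, Ces2e with Ces1b, and Ces1b with Ces2c. In LPS liver the order was Ces3a (384 ± 36.1 CPM per kilobase, SD, n = 3), Ces1c (320 ± 19.3), Ces2a, Ces2e, Ces1b, Ces1g, Ces1e, Ces1d, Ces1f and Ces2c (1.08 ± 0.131). There, Ces2e overlapped Ces1b and Ces1e overlapped Ces1d. Ces1d went from place 3 to place 8 and Ces1b from place 9 to place 5.

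The other 10 genes with a Ces symbol summed to 632, 658, 983 and 728 CPM in control replicates 1 to 4. In LPS replicates 1 to 3 they summed to 143, 176 and 194 CPM. All 20 genes together were 4.74-fold lower in LPS mice. Ces1h, Ces2f and Ces5a had 0 counts in every mouse, and Ces1a, Ces2d-ps and Ces2h were too low to be tested. Of the 4 that were tested, 3 were called lower and 0 higher, 0 were higher at an unadjusted p below 0.05, and DESeq2 gave the same 3 and 0. Ces3b, the neighbour of Ces3a, had 573, 590, 884 and 656 CPM in control mice and 119, 134 and 150 CPM in LPS mice. Ces3b changed by -2.34 on the log2 scale (SE 0.19, adjusted p = 2.17e-06, edgeR's quasi-likelihood test). Ces2b had 6.51, 5.68, 25.4 and 4.79 CPM in control mice and no count in any LPS mouse. Taking 3 counts per library as the smallest detectable amount, it was at least 61.4-fold lower, a bound that covers counting error only, and at least 32.8-fold lower without control replicate 3. Ces4a had a log2 fold change of -1.90 (adjusted p = 0.00109, same test). Ces2g had a log2 fold change of -0.55 and an adjusted p of 0.0526 (same test), which is not past the threshold. Its adjusted p was between 0.0159 and 0.188 over the alternatives, and below 0.05 in 6 of 14, DESeq2 among them.

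Reads from copies this alike can be hard to place, and the counting of reads with more than 1 possible gene is not given in the sources used here. The coding sequences of the Ces1 genes were between 72.07% and 90.85% identical to each other, those of the Ces2 genes between 82.62% and 83.72%, and those from different groups between 58.79% and 63.78%. The most alike pair among the 10 genes was Ces1b and Ces1c, while Ces3a was 95.27% identical to Ces3b and Ces2c 92.09% identical to Ces2b. Stretches of 100 bases found unchanged in a transcript of another Ces gene made up 1.29% of Ces1b and 1.39% of Ces1c. The share was 9.09% for Ces3a, through Ces3b, and 15.7% for Ces2c, through the pseudogene Ces2d-ps. For Ces1d, Ces1e, Ces1f, Ces1g, Ces2a and Ces2e no such stretch was found. The split of reads is therefore least certain for Ces3a and Ces2c. Summed with their copies, Ces3a and Ces3b were 3.51-fold lower in LPS mice, Ces2c and Ces2d-ps 34.8-fold lower, and Ces1b and Ces1c 4.30-fold lower.

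Likeness in sequence did not go with likeness in response in every pair. Ces1b and Ces1c have the most alike coding sequences of the 45 pairs and differed in response. Ces1d and Ces1f are 77.66% identical, the median of the Ces1 pairs, and had the smallest difference. Nor was the response ordered along the chromosome. From Ces1b to Ces1g the log2 fold changes of neighbouring genes were -0.63, -2.19, -6.31, -4.22, -6.27 and -3.50. In the Ces2 group the members are not direct neighbours, and in their order along the chromosome Ces2a, Ces2c and Ces2e had -2.05, -5.16 and -1.18, with Ces2b, not counted in any LPS mouse, between Ces2a and Ces2c. These are descriptions, with no test.

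Promoter sequences are shown for 3 pairs within the Ces1 and Ces2 groups, and for the D-box letters that the Ces1 promoters among them hold. They run from 250 bases before to 50 bases after the gene start in RefSeq, build GRCm38.p6. They were found for 7 of the 10 genes and 15 of all 20. Those of Ces1d, Ces1f, Ces3a, Ces2b and Ces2d-ps were not found. Ces1b has a further start in RefSeq, whose window (chr8:93079968-93080267, minus strand) is not printed but also holds the D-box letters. The promoters of Ces1b (chr8:93079891-93080190, minus strand) and Ces1c (chr8:93131234-93131533, minus strand) had 255 identical bases of 273 aligned, or 93.4%. Ces1b kept 64.8% of its level in LPS liver and Ces1c 21.9%. Any part of the promoters in the response was not tested. Those of Ces1e (chr8:93229570-93229869, minus strand) and Ces1g (chr8:93337160-93337459, minus strand) were 56.1% identical. The response of this pair did not differ past the threshold. To promoters of other groups, that of Ces1e was between 46.3% (Ces5a) and 57.8% (Ces2g) identical. The promoters of Ces2a (chr8:104733753-104734052, plus strand) and Ces2c (chr8:104846818-104847117, plus strand) were 68.2% identical, and the log2 ratio of this pair differed by 3.07 between the groups of mice (adjusted p = 0.0347, exact permutation test). The promoter of Ces2e, not printed, was 62.3% identical to that of Ces2c. In these sequences, read 5′ to 3′ on the strand of the gene, capitals mark the 8 letters TTATGTAA, a D-box as bound by the PAR bZIP factors and their repressor NFIL3, or the letters GGGACTTTC, part of a kappa B motif.
Ces1b: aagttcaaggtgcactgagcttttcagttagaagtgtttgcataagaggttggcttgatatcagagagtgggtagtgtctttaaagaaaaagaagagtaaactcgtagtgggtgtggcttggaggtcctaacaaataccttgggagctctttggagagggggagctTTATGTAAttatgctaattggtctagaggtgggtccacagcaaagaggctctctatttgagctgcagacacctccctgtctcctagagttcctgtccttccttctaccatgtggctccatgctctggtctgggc
Ces1c: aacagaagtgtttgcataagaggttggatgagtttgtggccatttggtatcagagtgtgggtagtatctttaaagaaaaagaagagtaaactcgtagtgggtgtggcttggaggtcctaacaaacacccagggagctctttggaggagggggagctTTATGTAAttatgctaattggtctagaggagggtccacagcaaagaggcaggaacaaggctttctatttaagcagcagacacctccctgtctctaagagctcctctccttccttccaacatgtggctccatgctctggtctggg
Ces1e: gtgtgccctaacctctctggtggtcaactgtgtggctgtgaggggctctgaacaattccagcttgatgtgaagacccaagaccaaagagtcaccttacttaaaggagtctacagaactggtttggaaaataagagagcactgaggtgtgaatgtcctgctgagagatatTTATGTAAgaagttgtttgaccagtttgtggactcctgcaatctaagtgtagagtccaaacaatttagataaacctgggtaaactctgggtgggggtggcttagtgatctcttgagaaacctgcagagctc
Ces1g: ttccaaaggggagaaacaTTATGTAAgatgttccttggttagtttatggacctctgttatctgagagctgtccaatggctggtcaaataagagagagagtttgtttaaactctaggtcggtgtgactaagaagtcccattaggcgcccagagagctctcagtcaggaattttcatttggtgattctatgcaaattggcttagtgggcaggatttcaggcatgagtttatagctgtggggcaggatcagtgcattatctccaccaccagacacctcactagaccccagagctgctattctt
Ces2a: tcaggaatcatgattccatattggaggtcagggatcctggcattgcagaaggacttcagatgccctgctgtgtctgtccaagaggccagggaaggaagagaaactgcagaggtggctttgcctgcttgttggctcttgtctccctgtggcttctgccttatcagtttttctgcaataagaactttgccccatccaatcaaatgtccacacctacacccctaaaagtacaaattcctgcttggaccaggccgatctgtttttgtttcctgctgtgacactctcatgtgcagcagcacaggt
Ces2c: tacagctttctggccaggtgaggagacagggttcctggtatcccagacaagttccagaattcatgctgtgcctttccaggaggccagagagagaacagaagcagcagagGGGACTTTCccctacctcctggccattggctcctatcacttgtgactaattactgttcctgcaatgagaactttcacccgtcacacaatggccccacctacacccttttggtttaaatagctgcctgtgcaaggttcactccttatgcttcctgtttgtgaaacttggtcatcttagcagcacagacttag
The D-box letters, looked for on both strands, were in the promoters of Ces1b, Ces1c, Ces1e and Ces1g and of Ces1a, and in 0.938% of the 32851 promoters of the same length. The kappa B letters, on either strand, were in those of Ces2c and Ces5a and in 0.353% of all. Also on either strand, the letters TATAAA, in 13.6% of all promoters, were in that of Ces1g among the 7. CCAAT on either strand, in 37.4%, was in those of Ces1b, Ces1c, Ces1g, Ces2a and Ces2c. The letters TGNACTTTG, in 1.41%, were in none of the 15. These motifs were chosen after the sequences were seen, and a match describes letters, not a bound site. The D-box letters were shared by Ces1 genes with log2 fold changes from -0.63 to -4.22.

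Other enzymes of the same kind of chemistry gave a frame for these falls. Of 27 tested esterases, lipases and related hydrolases outside the family, 7 were called lower and 0 higher. In edgeR's test 3 were higher at an unadjusted p below 0.05, and DESeq2 called 0 higher. At an adjusted p below 0.05 of any fold, 13 were lower and 2 higher in edgeR's test. The largest falls were in Lipc, hepatic lipase, which changed by -3.27 on the log2 scale (SE 0.16, adjusted p = 2.30e-08), and Acot1, an acyl-CoA thioesterase, with -2.04 (SE 0.29, adjusted p = 0.000208), both in edgeR's quasi-likelihood test. The median of this list was -0.44, against -2.85 for the 10 carboxylesterases and -0.01 for all genes tested.

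Some genes of the compartment in which carboxylesterases reside moved the other way. Among 8 tested genes for lumenal partners and retrieval, 2 were called higher and 0 lower, with 0 lower at an unadjusted p below 0.05 and 0 by DESeq2. These were Hspa5, the main lumenal chaperone, with 681 ± 111 CPM (SD, n = 4) in control mice and 1647 ± 130 CPM (SD, n = 3) in LPS mice, and Hsp90b1, with 973 ± 108 and 1951 ± 250 CPM. Their log2 fold changes were 1.27 and 1.00 (adjusted p = 0.000112 and 0.000631, edgeR's quasi-likelihood test). At an adjusted p below 0.05 of any fold in the same test, 6 of the 8 genes were higher and 0 lower. Of 11 genes for triglyceride mobilisation and lipoprotein assembly, 3 were called higher and 0 lower, with 1 lower at an unadjusted p below 0.05 and 0 by DESeq2. The largest rises there were in Cidec and Plin5, which encode lipid droplet proteins, with log2 fold changes of 3.06 and 1.63 (adjusted p = 4.35e-05 and 1.42e-05, same test).

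Transcription factors known to act on carboxylesterase genes, listed with Keap1, a binding partner of the factor Nrf2, gave no call. Of these 13 genes, all tested, 0 were called lower and 0 higher, in edgeR and in DESeq2. At an unadjusted p below 0.05 in edgeR's test, 5 were lower and 1 higher, and at an adjusted p below 0.05 of any fold 4 were lower and 1 higher. For these 5 the control and LPS mice did not overlap. The largest of their changes were in Nr1i3, at -0.85 on the log2 scale (adjusted p = 0.000807, edgeR's quasi-likelihood test), and Nr0b2, at -0.80 (adjusted p = 0.0204, same test), while Hnf4a changed by 0.74 (adjusted p = 0.0096, same test). These are transcript levels and do not measure the activity of the factors.

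Markers of other cells and of hepatocytes moved in the same comparison. The 17 hepatocyte markers tested, of 18 listed, had 3 called lower and 2 higher and a median log2 fold change of -0.20. Their summed level was 85976, 84253, 104486 and 92258 CPM in control mice and 57105, 64169 and 64801 CPM in LPS mice, with Alb the most abundant. Hepatocyte markers were thus lower in sum in the LPS mice but did not fall as far as the carboxylesterases, whose summed CPM was 4.78-fold lower. All 8 tested neutrophil markers, of 12 listed, were called higher and 0 lower, with 0 lower at an unadjusted p below 0.05 and 0 by DESeq2. The neutrophil sum went from between 2.02 and 5.24 CPM in control mice to 217, 160 and 160 CPM in LPS mice, with S100a9 the most abundant, and Mpo had at most 3 counts in every mouse. Of the 12 macrophage and monocyte markers, 5 were called higher and 1 lower, against 4 and 1 by DESeq2, with Marco the most abundant. Their sum was 155, 223, 205 and 134 CPM in control mice and 747, 209 and 217 CPM in LPS mice, a sum over genes that changed in opposite directions. Marco was higher in every LPS mouse than in any control mouse and Clec4f lower. LPS replicate 1 had the highest sum, and Marco alone had 410 CPM there, against 66.5 and 65.6 CPM in LPS replicates 2 and 3. That mouse had the lowest Ces1b, Ces1c, Ces1d, Ces1g, Ces2a, Ces2e and Ces3a levels of its group. Its Ces1e and Ces1f levels were the highest. LPS replicates 2 and 3 were much alike, which by itself puts replicate 1 at an end of its group for many genes. The share of all genes with this order was not taken, and a link to the macrophage markers was not tested.

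Of the 10 sinusoidal endothelium markers, 2 were called higher and 1 lower, with a sum between 134 and 210 CPM in control mice and of 212, 125 and 122 CPM in LPS mice and with Fcgr2b the most abundant. Enterocytes also express carboxylesterases, but of the 6 enterocyte markers Alpi, Lct, Sis and Cdx2 had 0 counts in every mouse, and the sum of 129, 134, 148 and 108 CPM in control mice and 42.5, 91.5 and 78.1 CPM in LPS mice was almost all Fabp2. The single tested enterocyte marker, Fabp2, was not called in either direction in edgeR or DESeq2. It changed by -0.87 on the log2 scale (adjusted p = 0.0132, edgeR's quasi-likelihood test), short of the fold threshold, and the groups did not overlap. Of 16 tested mitochondrial transcripts, 13 were called lower and 0 higher, DESeq2 called 10 lower and 0 higher, 0 were higher at an unadjusted p below 0.05 in edgeR's test, and mt-Co1 was the most abundant. Their sum was 251434, 139477, 71888 and 80593 CPM in control mice and 60934, 42186 and 43706 CPM in LPS mice. The part of these shifts in cell make-up and in mitochondrial RNA in the fall of the carboxylesterases was not tested.

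Genes whose levels over the 7 mice were most like the summed carboxylesterases were sought among 7051 genes outside the family whose mean reached 10 CPM and that were counted in every mouse. Likeness was the root mean square distance between log2 CPM profiles, each centred on its mean. The closest to the family sum were Rdh16f2 (0.099), Cyp2c68 (0.111), Ddah1 (0.129), Pbld2 (0.14) and Hsd11b1 (0.14). For the Ces1 sum they were Igfbp2 (0.143), Ugt2a3 (0.189) and Igfals (0.197), and for the Ces2 sum Abcb11 (0.119), Ugt2b34 (0.122) and Nqo2 (0.127). Near Ces3a were Mug2 (0.086) and Aadac (0.093), which encodes another esterase of the endoplasmic reticulum. Aadac had 737, 788, 896 and 824 CPM in control mice and 229, 276 and 269 CPM in LPS mice, and its log2 fold change of -1.65 lay beside the -1.70 of Ces3a.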

How the data were processed

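RNA-seq was available for whole liver of 4 control and 3 LPS mice. The authors deposited raw counts per gene, whole numbers without normalization, and the submitters' processing notes name cutadapt 1.9.1, HISAT2 2.2.1, HTSeq 0.6.1, DESeq2 1.34.0 and the build GRCm39. The annotation release and the counting of ambiguous reads are not given in the sources used here. Libraries kept the strand and were made from polyadenylated RNA.

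Counts were analysed in R 4.3.3 with edgeR 4.0.16: filterByExpr (13683 of 56691 genes kept), TMM scaling, and the quasi-likelihood test of LPS against control with Benjamini-Hochberg adjustment over all genes tested. A call needed an adjusted p below 0.05 with a log2 fold change beyond 1 in either direction, and standard errors were derived from the F statistic. The method was tested on simulated data. Ratios of pairs, with 0.5 counts added, were compared by an exact two-sided permutation test over the 7 mice in Python 3.11.15. A library's floor of 3 counts was between 0.138 and 0.212 CPM and covers counting error only.

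Named genes were the 10 members, every other Ces gene, in the lists of enzymes and partners the 2 called lower with the largest fall and the 2 called higher with the largest rise, in the marker lists the most abundant gene and genes at 0, and the nearest genes by likeness. Other genes named, Gusb among them, were chosen after their values were seen. The members and lists were chosen with earlier results of these data known. Lists covered esterases and lipases, lumenal partners, triglyceride mobilisation, transcription factors, and markers of hepatocytes, neutrophils, macrophages, endothelium, enterocytes and mitochondria. The alternatives tried were RLE factors, DESeq2 1.42.0, total counts, other filters, no fold threshold, 2 counts added to ratios, every Ces gene in the sums, the replicate number as a block, leaving out each mouse, and LPS replicates 2 and 3 summed. Lengths and coding sequences came from GENCODE M21, and gene order and promoters from RefSeq on GRCm38.p6, a build other than that of the counts, so the printed positions hold for that reference only.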

Additional observations from a re-analysis of the deposited data

Results flagged for a closer look

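Ces2b in control replicate 3 stood far from the other control mice, with 25.4 CPM against 4.79 to 6.51 CPM, a gap of 0.917 of the whole range of the group. Of 18 values checked in this way among the carboxylesterases, this was the only such case, and chance gives about 1 in 20. The 18 include sums over the same genes, and Ces3a again as its own group, so they are not all separate values. The cause was not tested.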

How the results depend on the processing

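Across 14 alternatives for each of the 10 carboxylesterases, 140 of 140 log2 fold changes were negative and 139 kept their side of the call. The exception was Ces2e without LPS replicate 1, at -0.97. The number of carboxylesterases called lower was 9 in each alternative except 10 with no fold threshold and 8 without LPS replicate 1, and with single mice left out it ran from 8 to 9. With the replicate block it was 9. Whether the numbers in the labels pair the mice is not settled. Deviations from the group mean correlated at 0.205, -0.06 and 0.08 for same-numbered mice, and between -0.151 and 0.107 for differently numbered ones. With so few mice these values cannot decide it. Over all genes the replicate block gave 926 lower and 995 higher calls, against 1000 and 1068. With single mice left out, the log2 ratio of the family sum was between -2.33 and -2.19, that of Ces1 between -2.87 and -2.71, that of Ces2 between -1.96 and -1.72, and that of Ces3a between -1.77 and -1.60. Of the pairs, 37 passed also with 2 counts added, and between 41 and 43 had ratios without overlap over the alternatives. An exact test of pairs cannot pass with a mouse left out, nor with LPS replicates 2 and 3 summed. The smallest p of that test is 0.1 for 3 against 3 and 0.0667 for 4 against 2. With total counts the lower and higher calls over all genes were 1177 and 926. The n of 3 rests on LPS replicates 2 and 3 being separate mice. Depth limits Ces2b, with no count in LPS mice.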
